A study of Mus musculus with 12 samples.

Results

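Spleen dendritic cells (DCs) of both classical lineages were compared with the bone marrow pre-DCs of both lineages, to describe the changes that the lineages share as progenitors become mature cells. The comparison used 9 of the 12 arrays of the series, chosen by their titles: 5 of spleen DCs (CD24 DC, n = 3, and CD172a DC, n = 2) and 4 of marrow progenitors (pre-CD8, n = 2, and pre-CD4, n = 2). All cells came from C57Bl/6 mice carrying a GFP reporter at 1 allele of Zbtb46, labelled N8 Zbtb46GFP/+, a genotype that all groups share, and were taken at steady state. The series text names 8 to 10 littermates and a sort purity above 95%, and the labels do not say whether arrays of a group are separate mice or pools, so the spread between arrays may be technical. Pre-CD8 cells were lineage negative, CD135 and CD11c positive, CD117 intermediate, Siglec H negative and MHC class II intermediate. Pre-CD4 cells were lineage negative, CD135, CD115 and CD11c positive, CD117 low, and lacked MHC class II. The gate of CD172a DCs took CD172a-positive cells with CD11c and MHC class II. That of CD24 DCs took CD24-positive, CD172a-negative cells with CD11c and, in the label, no MHC class II, although the MHC class II gene H2-Ab1 stood between 12.06 and 12.35 on the CD24 DC arrays. A mortar and pestle freed the marrow cells, while collagenase B and DNase released the spleen cells, so stage, tissue and digestion cannot be told apart in any result below.

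Classical DCs arise in the marrow from dividing progenitors, leave it as pre-DCs and complete their differentiation in tissues such as the spleen. Mature DCs take up antigen, load it on MHC molecules and show it to T cells together with costimulatory ligands such as CD80 and CD86. CD24 DCs belong to the lineage usually called cDC1, which cross-presents antigen to CD8 T cells, and CD172a DCs to cDC2, which favours CD4 T cells.

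Each value is a log2 expression value as deposited, and 1 unit is a 2-fold difference. The shared difference is the mean of the DC group means minus the mean of the progenitor group means, and the lineage differences are CD24 DC minus pre-CD8 and CD172a DC minus pre-CD4, each given with its standard error from limma. A gene was called at a Benjamini-Hochberg adjusted p under 0.05 over 22184 genes, and every adjusted p below is of this kind. The lineage differences share no array. In bulk samples, fewer cells of a type and less RNA per cell cannot be told apart. Array interquartile ranges were 2.10 to 2.59 in DCs and 2.48 to 2.74 in progenitors, and this difference in spread moves with the comparison: the median shared difference was -0.30 among the fifth of genes with the highest mean level and -0.11 after quantile normalization. Over all genes the median was 0.08, and -0.08 with arrays set to a common median and interquartile range.

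In the shared comparison 1529 genes were higher in DCs (6.89% of those tested) and 2397 lower (10.8%). This split was 1561 and 1942 with quantile normalization, and 795 and 849 with each array's interquartile range as a covariate. In CD24 DC against pre-CD8, 1399 genes were called (6.31%), and in CD172a DC against pre-CD4 2821 (12.7%). Genes called in both lineages in the same direction numbered 316 for higher (1.42%) and 571 for lower (2.57%), and 18 were called in opposite directions (0.0811%). The genes higher in both made up 53.8% of those higher in the CD24 lineage and 30.3% of those higher in the CD172a lineage, and the genes lower in both 70.3% and 32.1%. Across all genes, which are not independent replicates, the lineage differences correlated at r = 0.645. Counts of members called in the gene lists below are to be read beside these shares of all genes.

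Of the 316 genes higher in both lineages, 248 differed by at least 1 in both and 80 by at least 2. Of the 571 lower in both, 429 and 116 did. Both sets were selected for differences on these same arrays, so separation of the arrays follows largely from the selection and adds no evidence. All 5 DC arrays lay above all 4 progenitor arrays for 294 of the 316 (5.55% of all genes did so), and below them for 555 of the 571 (7.88% of all genes). Leaving out 1 array changed these counts: without pre-CD8 array 1 the calls were 2453 shared, 158 higher in both and 261 lower in both, and without pre-CD4 array 1 they were 2401, 207 and 371. Without CD24 DC array 1, the DC array with the widest interquartile range (2.59), the counts rose to 5379, 417 and 803. None of the 887 genes called alike was called alike in the other direction under the alternatives that test 1 value per gene.

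**Figure D1:**
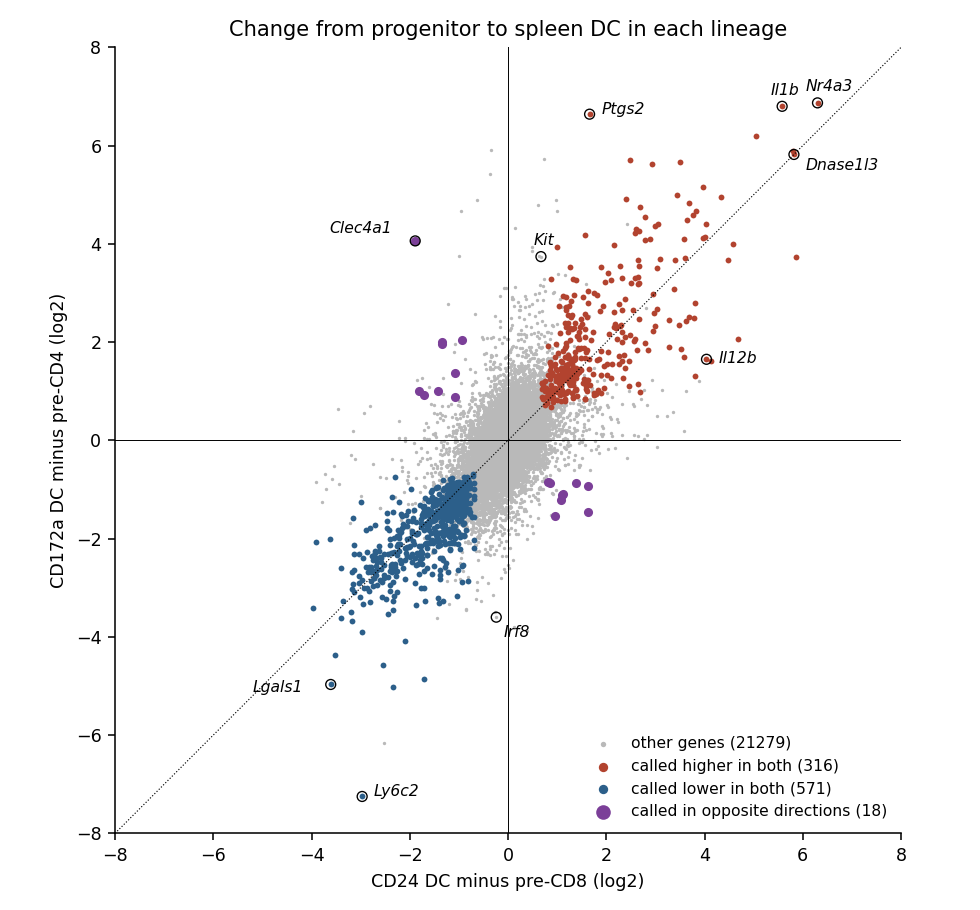
Log2 difference of each of the 22184 genes from progenitor to spleen DC, in the CD24 lineage on the x axis and the CD172a lineage on the y axis. Each point is a gene, coloured where it was called in both lineages, with the dotted line marking equal change. Most coloured points lie in the upper right (316 genes) and lower left (571), and Ptgs2, Ly6c2 and Clec4a1 lie far from the line.

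The 12 leading genes in each direction are those with the largest difference in the lineage where they moved less, among genes called alike whose DC and progenitor arrays did not overlap. Those that rose were led by the orphan nuclear receptor gene Nr4a3 and by genes of secreted or cell surface proteins. Nr4a3, which is induced by acute signals, stood at 4.93 and 5.53 on the pre-CD4 arrays and 4.46 and 5.43 on the pre-CD8 arrays. On the DC arrays it stood at 12.04 and 12.16 in CD172a DC and 9.95, 11.76 and 12.03 in CD24 DC. By the rule of selection the groups did not overlap, and CD24 DC array 1 was the lowest of the DC arrays. The shared difference was 6.58 ± 0.36 (adjusted p = 1.4e-07), with 6.30 ± 0.48 in the CD24 and 6.87 ± 0.53 in the CD172a lineage.

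Dnase1l3, a secreted nuclease that degrades DNA in microparticles, was between 3.83 and 5.20 on the 4 progenitor arrays and between 9.89 and 10.40 on the 5 DC arrays. Its difference was 5.82 in each lineage (standard errors 0.32 and 0.35, adjusted p = 8.08e-07 and 7.27e-07). Adam23, a catalytically inactive member of the ADAM family of adhesion proteins, ran from 3.83 to 5.06 in progenitors and from 9.82 to 10.58 in DCs, a shared difference of 5.84 ± 0.23. The deposited table carries no detection call, and most progenitor values of these genes lie below the progenitor arrays' medians (4.94 to 5.08), so whether they exceed background is not known and the differences are those of the deposited values. For both genes the DC arrays lay within 1 unit of each other, while pre-CD8 array 2 was the highest progenitor array.

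Il1b, the gene of interleukin-1 beta, was at 4.37 and 4.58 in pre-CD4, 5.65 and 5.37 in pre-CD8, 10.81 and 11.76 in CD172a DC and 10.78, 10.99 and 11.50 in CD24 DC. It rose by 5.58 ± 0.32 in the CD24 and 6.80 ± 0.35 in the CD172a lineage. The other genes in the leading 12 were Rasgef1b (shared difference 5.62 ± 0.28), Nr4a1 (4.64 ± 0.27), Nr4a2 (4.56 ± 0.35), 4932438H23Rik (4.29 ± 0.27), Klri1 (4.24 ± 0.25), Lncpint (4.21 ± 0.40), Egr2 (4.06 ± 0.34) and Cxcl9 (4.04 ± 0.23). Rasgef1b encodes an exchange factor for small GTPases, Klri1 an inhibitory lectin-like receptor, Lncpint a long non-coding RNA and Cxcl9 a chemokine that draws CXCR3-bearing T cells. Cxcl9 rose alike in both lineages (3.96 ± 0.31 and 4.11 ± 0.33) from group means of 4.69 in pre-CD4 and 7.66 in pre-CD8.

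The 12 leading genes that fell were of galectin-1, an S100 protein, a chemokine receptor, histones and cell division. Lgals1, the galectin-1 gene, stood at 11.93 and 11.71 in pre-CD4 and 11.45 and 10.37 in pre-CD8, against 6.40 and 7.29 in CD172a DC and 8.06, 7.41 and 6.45 in CD24 DC. It fell by 4.29 (standard error 0.31, adjusted p = 7.88e-07). S100a10, a partner of annexin A2 at the membrane, had a shared difference of -3.70 ± 0.32.

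Ccr2, the receptor for chemokines that draw cells out of the marrow, stood between 10.32 and 10.79 on the progenitor arrays and between 6.20 and 7.72 on the DC arrays, a shared difference of -3.51 ± 0.27 (adjusted p = 1.25e-06). Ly6c2, a surface antigen of monocytes and some progenitors, fell in both lineages but not equally, by -2.97 ± 0.40 in the CD24 and -7.25 ± 0.43 in the CD172a lineage (adjusted p = 0.00296 for the difference between lineages). The other genes in this leading 12 were Birc5 (-3.44 ± 0.25), H1f5 (-3.43 ± 0.40), H2bc12 (-3.35 ± 0.44), Anln (-3.32 ± 0.24), Cdc25c (-3.11 ± 0.14), Shcbp1 (-3.10 ± 0.29), Nuf2 (-3.10 ± 0.31) and Mir1950. Ly6c2, H1f5 and H2bc12 belong to families of near-identical genes, and their values are uncertain. Without pre-CD8 array 1 the call of H2bc12 in the CD24 lineage was lost (adjusted p = 0.106).

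The probe set of Mir1950 showed a shared difference of -3.95 ± 0.26, from 5.91 to 6.36 on progenitor arrays to 1.85 to 3.38 on DC arrays. Its hairpin lies at chr19:34965396-34965469 on the plus strand of GRCm38.p6, inside the span of the kinesin gene Kif20b (chr19:34922335-34975750). Kif20b, a motor protein of cytokinesis, had a shared difference of -2.91 ± 0.24. The probe set is annotated to the hairpin, and the mature miRNA was not measured separately. Its mature sequence in RefSeq is shown with the seed, bases 2 to 8, in capitals.
mmu-miR-1950: uCUGCAUCuaaggauaugguca

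**Figure D2:**
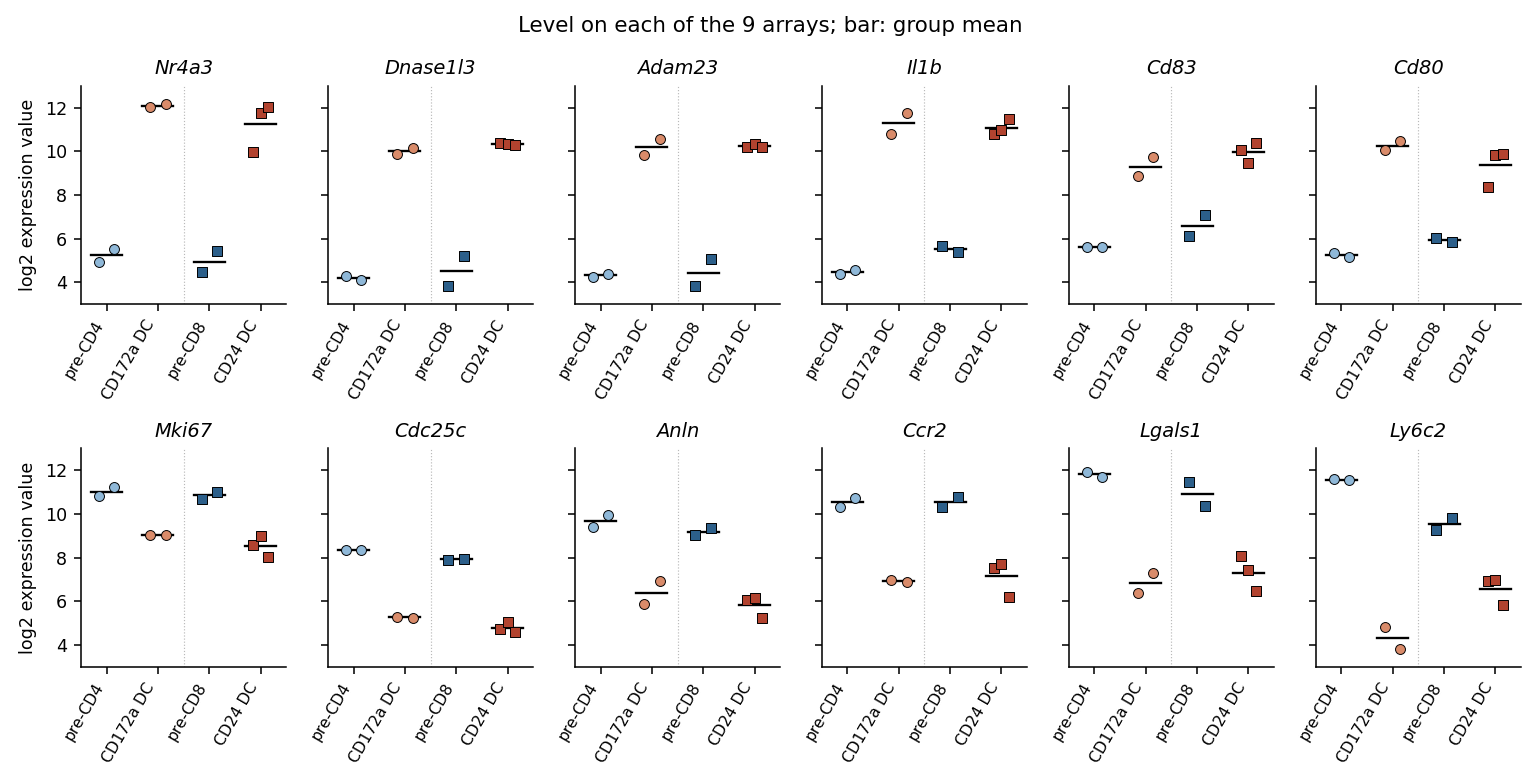
Log2 expression value on each of the 9 arrays for 12 genes, with circles for the CD172a lineage and squares for the CD24 lineage, and a bar at each group mean. In the upper row all DC arrays lie above all progenitor arrays and in the lower row below them, and CD24 DC array 1 is the lowest DC array for Nr4a3 (9.95) and Cd80 (8.38).

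Mitosis genes fell together in both lineages. All 45 measured members of the list were lower in DCs and called in each lineage, with a median shared difference of -2.62 and a range from -3.44 to -1.50, beside a median of 0.08 over all genes. Mki67, the proliferation marker, stood at 10.80 and 11.24 in pre-CD4 and 10.70 and 11.02 in pre-CD8, against 9.04 and 9.03 in CD172a DC and 8.60, 8.97 and 8.02 in CD24 DC. Its difference was -2.33 ± 0.28 in the CD24 and -1.98 ± 0.30 in the CD172a lineage. The largest falls after Birc5, a subunit of the chromosomal passenger complex, and Anln, the scaffold of the cleavage furrow, were those of Ttk, the spindle checkpoint kinase (-3.15 ± 0.21), and Nuf2, a kinetochore subunit. Cdk1, the kinase that drives entry into mitosis, ran from 9.16 to 9.70 in progenitors and from 6.07 to 7.70 in DCs (-2.62 ± 0.26). The count of members lower in both lineages was 44 or 45 on leaving out any array and 40 with each array's interquartile range as a covariate.

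DNA replication genes fell as well. Of 38 measured members 34 fell and none rose, with a median of -1.08, and 15 were called lower in both lineages. The largest falls were those of the histone chaperone gene Asf1b (-1.73 ± 0.17), the cohesion factor gene Dscc1 (-1.71 ± 0.29), Rrm1, the large subunit of ribonucleotide reductase (-1.64 ± 0.22), and Mcm7, a subunit of the replicative helicase (-1.61 ± 0.20). Rrm1 stood between 8.78 and 9.21 in progenitors and between 6.36 and 7.68 in DCs. The sliding clamp gene Pcna stood between 10.88 and 11.12 in progenitors and between 10.34 and 10.71 in DCs, and its difference of -0.45 ± 0.14 (adjusted p = 0.0365) turned to 0.15 with arrays set to a common median and interquartile range. Its call was also lost without any array other than CD172a DC array 2, CD24 DC arrays 1 and 2 and the first array of the common DC progenitor (adjusted p from 0.0513 to 0.144). The list held 9 called members with the interquartile range as a covariate. Lineage calls were lost for Rrm1 without pre-CD4 array 1 (adjusted p = 0.0508), for Mcm7 without pre-CD8 array 1 (0.264), and for Dscc1 without any single array except CD24 DC array 1 (0.0566 to 0.448).

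Among regulators of the cell cycle, 17 of 27 fell and 3 rose, with a median of -0.79. Those that fell were led by Cdc25c, the phosphatase that activates CDK1, which stood between 7.90 and 8.36 in progenitors and between 4.58 and 5.30 in DCs. The repressor gene E2f8 (-2.65 ± 0.25), Foxm1, an activator of mitotic genes (-2.53 ± 0.22), and the kinase inhibitor gene Cdkn2c (-2.12 ± 0.15) followed, each called in both lineages. The genes that rose were the antiproliferative genes Btg2 (1.75 ± 0.29) and Btg1 (1.43 ± 0.18) and the kinase inhibitor gene Cdkn1a (0.77 ± 0.23). The call of Cdkn1a was lost without CD172a DC array 1 or 2, pre-CD4 array 1 or pre-CD8 array 1 (adjusted p from 0.0834 to 0.134). In the CD24 lineage the call of Btg1 was lost without pre-CD8 array 1 (0.134) and that of Btg2 without any of 7 arrays (0.0541 to 0.421), while in the CD172a lineage Btg2 lost its call without pre-CD4 array 1 (0.0811).

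Histone genes, many but not all of which are expressed mainly during S phase, fell in 10 of 16 and rose in none, with a median of -1.57. H2ax, a replacement histone of DNA repair, fell in both lineages (-1.72 ± 0.29 and -4.86 ± 0.32, adjusted p = 0.00298 for the difference). It stood at 6.40 and 7.23 in CD172a DC and at 10.20, 9.32 and 9.42 in CD24 DC, which do not overlap, from 11.28 to 11.84 in progenitors. H2ac15 had the largest shared difference of the list (-4.35 ± 0.73) and was read at 2.16 and 6.91 on the CD172a DC arrays, a gap of over 4 units between arrays of a group. Many histone genes are nearly alike in sequence, which leaves their values uncertain. With the interquartile range as a covariate the list held 6 called members and the call of H2ac15 was lost (adjusted p = 0.0884).

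**Figure D3:**
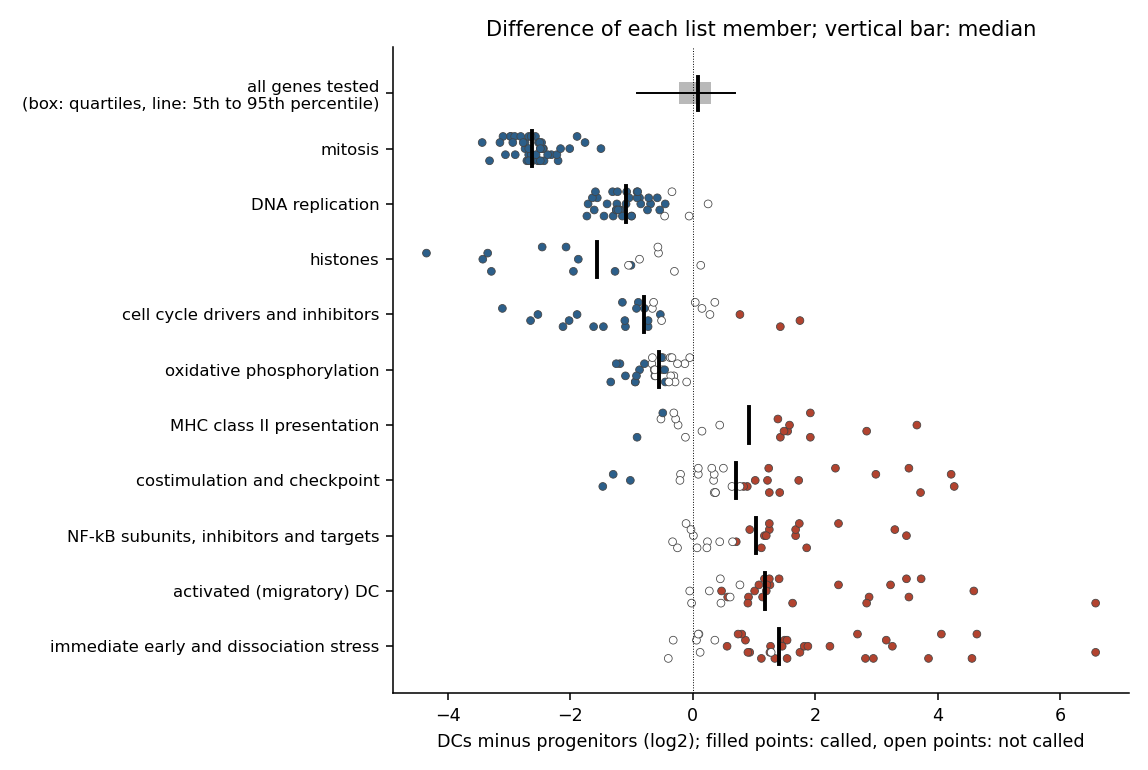
Shared log2 difference (DCs minus progenitors) of every measured member of the gene lists shown, filled where called and open where not, with a vertical bar at each median and the spread of all genes tested at the top. The mitosis members lie between -3.44 and -1.50, while the medians of the 4 lowest lists in the plot are 0.71 or above.

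Promoters of the mitosis and replication genes are shown because the members of these lists moved together. RefSeq promoter windows of GRCm38.p6, 250 bases before to 50 after a start, were searched on both strands for the CCAAT box (CCAAT), the cell cycle homology region or CHR (TTTGAA), E2F letters (TTTCCCGC, GGCGGGAA or TTTGGCGC) and kB letters (GGGACTTTC, GGGAATTTC or GGGAATTCC). CCAAT boxes bind NF-Y, the CHR the DREAM and MuvB complexes, which repress or activate cell cycle genes, and kB sites NF-kB. Windows were found for 16994 of the genes tested. CHR letters were in 15.4% of all 20615 windows, in 33 of the 44 windows of 40 mitosis genes, in 29.0% of those of genes lower in both lineages and in 15.7% of those of genes higher in both. The CCAAT box was in 37.7% of all windows, 72.7% of the mitosis windows and 57.9% of the 38 replication windows. E2F letters were in 4.21% of all windows, 42.1% of the replication windows and 2.27% of the mitosis windows. E-box letters (CACGTG), also searched, were in 8.07% of all windows, 6.09% for genes higher in both lineages and 6.73% for genes lower in both. For AP-1 (TGACTCA) these shares were 4.78%, 6.09% and 2.65%, and for PU.1-IRF (GGAANNGAA, N any base) 7.8%, 8.41% and 5.84%. Of the 40 windows of the immediate early list, 17.5% held E-box, 2.5% AP-1 and 0.0% PU.1-IRF letters. A match is a description of the letters and not a bound site.

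The 100 bases before the start are given, taking the start with the most matches where a gene has several. They are of 5 mitosis genes (Cdk1, Top2a, Kif11, Ube2c and Prc1) and of the replication genes Rrm1 and Uhrf1, chosen after their letters were seen. They are written in the gene's own direction, with capitals for matched letters (in the mitosis genes CCAAT or its complement ATTGG and TTTGAA or its complement TTCAAA, and in the replication genes CCAAT and TTCCCGCC). The mitosis genes hold both kinds of letters and the replication genes E2F and CCAAT letters.
Cdk1, chr10:69352913-69353012, minus strand: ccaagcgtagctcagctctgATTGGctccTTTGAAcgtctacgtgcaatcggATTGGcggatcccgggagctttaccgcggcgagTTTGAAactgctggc
Top2a, chr11:99024190-99024289, minus strand: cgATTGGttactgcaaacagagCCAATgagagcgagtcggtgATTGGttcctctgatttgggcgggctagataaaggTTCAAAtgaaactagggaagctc
Kif11, chr19:37376282-37376381, plus strand: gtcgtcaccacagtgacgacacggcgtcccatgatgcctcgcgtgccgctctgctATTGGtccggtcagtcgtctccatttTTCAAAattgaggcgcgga
Ube2c, chr2:164769829-164769928, plus strand: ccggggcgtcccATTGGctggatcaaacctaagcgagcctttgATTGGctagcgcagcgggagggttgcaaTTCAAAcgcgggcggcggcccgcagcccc
Prc1, chr7:80294376-80294475, plus strand: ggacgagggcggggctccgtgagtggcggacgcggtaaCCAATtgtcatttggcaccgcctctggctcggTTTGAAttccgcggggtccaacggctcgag
Rrm1, chr7:102441595-102441694, plus strand: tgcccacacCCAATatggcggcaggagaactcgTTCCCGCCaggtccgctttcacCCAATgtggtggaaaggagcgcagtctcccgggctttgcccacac
Uhrf1, chr17:56303237-56303336, plus strand: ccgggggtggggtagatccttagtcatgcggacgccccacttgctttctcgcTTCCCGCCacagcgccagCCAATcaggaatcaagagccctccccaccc

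The shared differences of these genes were -2.56 ± 0.22 for Top2a, which unlinks DNA before division, -2.90 ± 0.25 for the spindle motor gene Kif11, -2.64 ± 0.27 for Ube2c, a ubiquitin-conjugating enzyme of the anaphase-promoting complex, and -2.77 ± 0.19 for the midzone protein gene Prc1. Uhrf1, which keeps DNA methylation through replication, changed by -1.40 ± 0.18 and stood between 8.05 and 8.41 in progenitors and between 6.54 and 7.41 in DCs. In the CD24 lineage the call of Uhrf1 was lost without pre-CD8 array 1 (adjusted p = 0.117) or array 2 (0.0521).

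**Figure D4:**
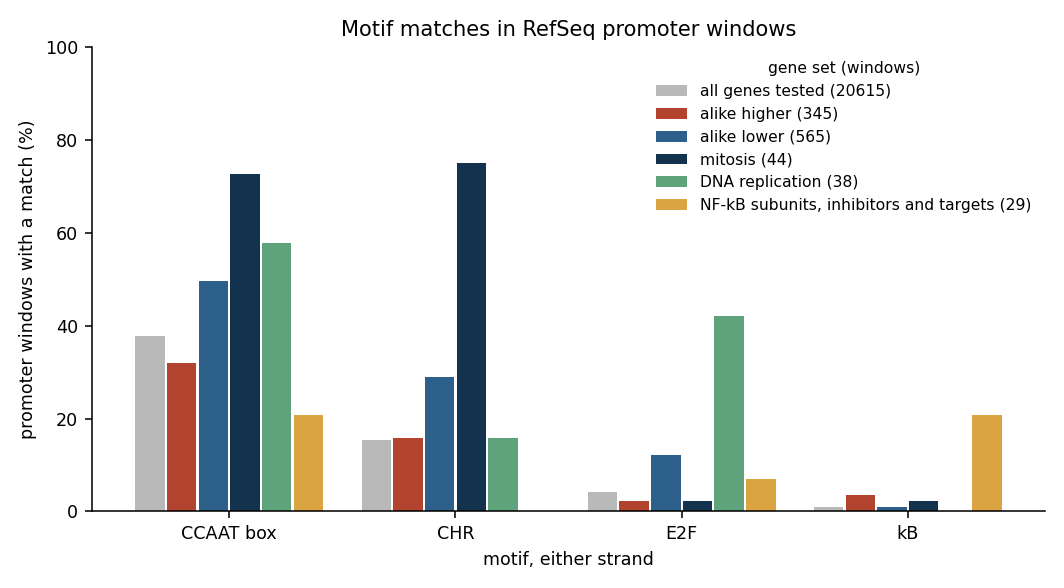
Share of RefSeq promoter windows (percent) with a match to each of 4 motifs on either strand, by gene set, with the number of windows in brackets. CHR letters are in 33 of 44 mitosis windows against 15.4% of all, and E2F letters in 42.1% of replication windows against 4.21%. The NF-kB list, which includes known targets, has kB letters in 20.7% of windows against 0.844% of all.

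Immediate early genes rose in DCs. These genes respond within minutes to growth factors, stress or handling, and the list also holds heat shock genes known to rise when tissue is dissociated. Of 36 measured members 28 rose and none fell, with a median of 1.40, and 19 were called higher in both lineages. The 3 members of the NR4A family and Egr2 were the largest. Nr4a1 stood at 6.91 and 7.34 in pre-CD4, 6.98 and 7.44 in pre-CD8, 11.76 and 12.39 in CD172a DC and 10.64, 11.88 and 12.09 in CD24 DC. The early growth response genes Egr3 (3.85 ± 0.35) and Egr1 (3.16 ± 0.41) also rose, and Fos, a subunit of AP-1, by 1.26 ± 0.21. Hspa1a, a heat shock protein gene, stood between 8.57 and 10.57 in progenitors and between 10.49 and 11.75 in DCs, which overlap, and was not called (1.28 ± 0.43, adjusted p = 0.0571).

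Spleen was digested with enzymes and marrow was not, and the part of that step in these values was not tested. The number called higher in both lineages was 12 without CD172a DC array 2, CD24 DC array 3 or pre-CD8 array 2, 9 without pre-CD8 array 1 and 10 with the interquartile range as a covariate. In a lineage, the call of Egr1 was lost without pre-CD8 array 1 (adjusted p = 0.191) or CD24 DC array 3 (0.0505), and that of Fos without CD24 DC array 3, either pre-CD8 array, CD172a DC array 2 or pre-CD4 array 2 (0.0551 to 0.155). Hspa1a was called with arrays set to a common median and interquartile range (0.0154) and without pre-CD4 array 2 (0.0265), pre-CD8 array 2 (0.0194) or common DC progenitor array 2 (0.0408).

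Genes of NF-kB subunits, inhibitors and targets rose in 14 of 24 and fell in none, with a median of 1.02, and 11 were called higher in both lineages. NF-kB is a family of dimeric factors held in the cytoplasm by inhibitors whose own genes it induces. Tnf, a cytokine induced by it, stood at 7.17 and 7.20 in pre-CD4, 6.59 and 6.01 in pre-CD8, 10.02 and 9.93 in CD172a DC and 10.25, 10.03 and 10.04 in CD24 DC (3.30 ± 0.16, adjusted p = 6.41e-08). The 5 DC arrays lay within 1 unit of each other and apart from the progenitors. The adaptor gene Traf1 rose by 3.49 ± 0.23 and Tnfaip3, the gene of the inhibitory enzyme A20, by 2.38 ± 0.21. Of the subunits, Rel (1.86 ± 0.25) and Nfkb2 (1.25 ± 0.19) rose, while Rela was at 0.24 ± 0.13 and not called (adjusted p = 0.23). Rela was called with quantile normalization (adjusted p = 0.0358) and with arrays set to a common spread (0.0183). The inhibitor gene Nfkbia, which ran from 8.22 to 8.43 in progenitors and from 9.16 to 9.75 in DCs, rose by 1.12 ± 0.15.

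The letters for NF-kB were in 20.7% of the 29 promoter windows of this list, against 0.844% of all windows and 3.48% of those of genes higher in both lineages. Because the list holds known NF-kB targets, its share follows in part from how it was made and is no evidence from these arrays. The 100 bases before the start of Nfkbia and Nfkb2, with the start chosen as above, hold kB letters, which overlap on both strands in Nfkb2 (capitals, and a CCAAT box in Nfkb2).
Nfkbia, chr12:55492648-55492747, minus strand: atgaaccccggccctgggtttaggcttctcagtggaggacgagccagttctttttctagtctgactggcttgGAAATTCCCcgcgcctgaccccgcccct
Nfkb2, chr19:46304637-46304736, plus strand: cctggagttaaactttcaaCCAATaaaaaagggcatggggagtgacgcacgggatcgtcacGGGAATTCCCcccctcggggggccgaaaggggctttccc
In the CD24 lineage the calls of Rel (adjusted p = 0.138), Nfkbia (0.103) and Nfkb2 (0.165) were lost without pre-CD8 array 1, those of Nfkbia (0.0855) and Nfkb2 (0.0749) without pre-CD8 array 2 and that of Nfkb2 without CD24 DC array 2 (0.0506) or 3 (0.0597). In the CD172a lineage Nfkb2 lost its call without CD172a DC array 2 (0.0507) or pre-CD4 array 1 (0.0667).

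Measured genes of costimulation and checkpoints, by which DCs and T cells signal to each other, numbered 30. They rose in 14 and fell in 3, beside 6.89% and 10.8% of all genes, and 13 were not called, with a median of 0.71. Of these, 11 were called higher in both lineages. Cd80, a ligand of CD28 and CTLA-4, stood at 5.36 and 5.14 in pre-CD4, 6.01 and 5.84 in pre-CD8, 10.04 and 10.46 in CD172a DC and 8.38, 9.84 and 9.89 in CD24 DC (4.22 ± 0.28, adjusted p = 4.28e-07). Cd86, the other such ligand, was already higher in pre-CD8 (7.81 and 8.53) than in pre-CD4 (6.57 and 5.84) and reached 10.65 to 11.07 on all DC arrays. It rose by 2.68 ± 0.31 in the CD24 and 4.76 ± 0.35 in the CD172a lineage, a difference between lineages that was not called (adjusted p = 0.0561), but was with quantile normalization (0.0318) or without common DC progenitor array 2 (0.034).

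Cd83, a maturation marker of DCs, ran from 5.62 to 7.08 in progenitors and from 8.86 to 10.40 in DCs (3.53 ± 0.25). Among genes of inhibitory receptors and ligands, Cd200r1 was called lower and Havcr2 and Cd274 higher. Havcr2, the gene of TIM-3, changed by 4.27 ± 0.26, and Cd274, the gene of PD-L1, by 2.99 ± 0.19, from 4.41 to 5.18 in progenitors to 6.99 to 8.41 in DCs. Cd48, a SLAM family ligand, was the member called lower in both lineages (-1.47 ± 0.15).

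Genes known from activated or migrating DCs rose in 23 of 30 and fell in none, with a median of 1.18, and 13 were called higher in both lineages. They include Nr4a3, Cd83 and Traf1, which other lists also hold. Ccl5, a chemokine for T cells, rose by 4.59 ± 0.29 and Mreg, a vesicle transport protein, by 3.73 ± 0.21. Ccr7, the receptor that guides DCs to T cell zones, stood at 5.43 to 5.99 on progenitor arrays, 8.19 and 9.21 in CD172a DC and 8.10, 8.90 and 10.27 in CD24 DC (3.23 ± 0.36, adjusted p = 3.06e-05). Il12b, a subunit of interleukin-12, rose in both lineages and by more in the CD24 lineage (4.04 ± 0.23 against 1.65 ± 0.26, adjusted p = 0.00392 for the difference). With the interquartile range as a covariate the call of Ccr7 in the CD172a lineage was lost (0.0672).

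MHC class II presentation genes rose in 9 of 18 and fell in 2, beside 6.89% and 10.8% of all genes, with 4 called higher in both lineages. Pre-CD4 cells were sorted as lacking MHC class II, pre-CD8 cells as intermediate and CD172a DCs as positive. For the genes of this list, the part of these gates and that of maturation cannot be told apart. H2-Ab1, which the gates used, stood at 8.17 and 10.20 in pre-CD4, 11.57 and 11.98 in pre-CD8 and 11.79 to 12.35 in DCs. Its difference was 2.74 ± 0.45 in the CD172a and 0.42 ± 0.41 in the CD24 lineage, and the difference between lineages was not called (adjusted p = 0.113). That difference, CD24 minus CD172a lineage, depended on the arrays and was -3.34 without pre-CD4 array 2. H2-Eb1 rose in the CD172a lineage and was not called in the other (4.67 ± 0.31 and 1.00 ± 0.28, adjusted p = 0.000959 for the difference), as was found for H2-DMb2, a chain of the peptide exchange factor (3.14 ± 0.25 and 0.71 ± 0.23, adjusted p = 0.00322). H2-Eb1 was called in the CD24 lineage with arrays set to a common median and interquartile range (adjusted p = 0.0343), with trend and robust estimation (0.0398), without genes of low mean level (0.0335) and without either pre-CD4 array (0.0212), and H2-DMb2 with the common median and interquartile range (0.0405). Ciita, the transactivator of these genes, changed by 2.42 ± 0.30 and 0.69 ± 0.28. Its difference between lineages was not called (adjusted p = 0.0743), but was with quantile normalization (0.0407).

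H2-Eb2 and H2-Ob were among those called in both lineages. H2-Eb2 stood between 4.05 and 4.48 on all progenitor arrays, at a mean of 9.29 in CD172a DC and at 5.53, 7.18 and 7.28 in CD24 DC. H2-Ob, a chain of the inhibitor of peptide exchange, rose by 1.92 ± 0.22. MHC genes are similar in sequence, so their values are uncertain. In the CD24 lineage the call of H2-Eb2 was lost without pre-CD8 array 1 (adjusted p = 0.0591) and that of H2-Ob without either pre-CD8 array or CD24 DC array 1 or 3 (0.0512 to 0.307).

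Receptors of position changed in both directions. Of 28 chemokine and lipid receptors 9 rose and 4 fell, beside 6.89% and 10.8% of all genes, with a median of 0.31. The receptors higher in both lineages were Ccr7 and Ptafr, the receptor of platelet-activating factor (3.10 ± 0.28). Xcr1, a chemokine receptor of cDC1, rose in the CD24 lineage (3.14 ± 0.40) and stood at 9.66 to 10.41 in CD24 DC against 5.62 and 5.80 in CD172a DC. In the CD172a lineage it was not called (1.02 ± 0.43), and neither was the difference between lineages (adjusted p = 0.131). Xcr1 was called in the CD172a lineage with separate fits for each lineage (0.0286). Without pre-CD8 array 2 its difference between lineages was 2.99, against 2.12 with all arrays. Cxcr4, the receptor that holds cells in the marrow, stood between 9.40 and 9.80 in progenitors and between 9.38 and 9.97 in DCs (0.08 ± 0.14, adjusted p = 0.723). The list's 9 higher members numbered 6 to 10 on leaving out an array.

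Of 33 integrin and adhesion genes 13 rose and 6 fell, with a median of 0.24. Cd81, a tetraspanin, stood at 5.45 and 5.21 in pre-CD4, 5.98 and 7.39 in pre-CD8, 8.68 and 9.30 in CD172a DC and 10.95, 11.06 and 11.48 in CD24 DC (4.07 ± 0.25, adjusted p = 2.93e-07). The integrin gene Itgb7, a subunit of the gut-homing integrin, fell in both lineages (-1.93 ± 0.27 and -2.05 ± 0.30). Vcam1, a ligand of integrin VLA-4 that is also on the monocyte and macrophage marker list, rose by 1.88 ± 0.24. Cadm1, an adhesion gene of cDC1, rose by 3.89 ± 0.34 in the CD24 lineage and was not called in the other (1.21 ± 0.37, adjusted p = 0.0506). It was called there with quantile normalization (0.0377), with separate fits for each lineage (0.0147), with the other treatments of low genes, probe sets and variance (0.0335 to 0.0496) and without CD24 DC array 1, common DC progenitor array 1 or either pre-CD8 array (0.0103 to 0.0486). The difference between lineages was called for Cadm1 (adjusted p = 0.0212), but not without CD172a DC array 1 or 2, CD24 DC array 2, pre-CD4 array 2 or pre-CD8 array 1 (0.0508 to 0.101). In the CD24 lineage Vcam1 lost its call without pre-CD8 array 1 (0.354) or CD24 DC array 3 (0.0679).

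**Figure D5:**
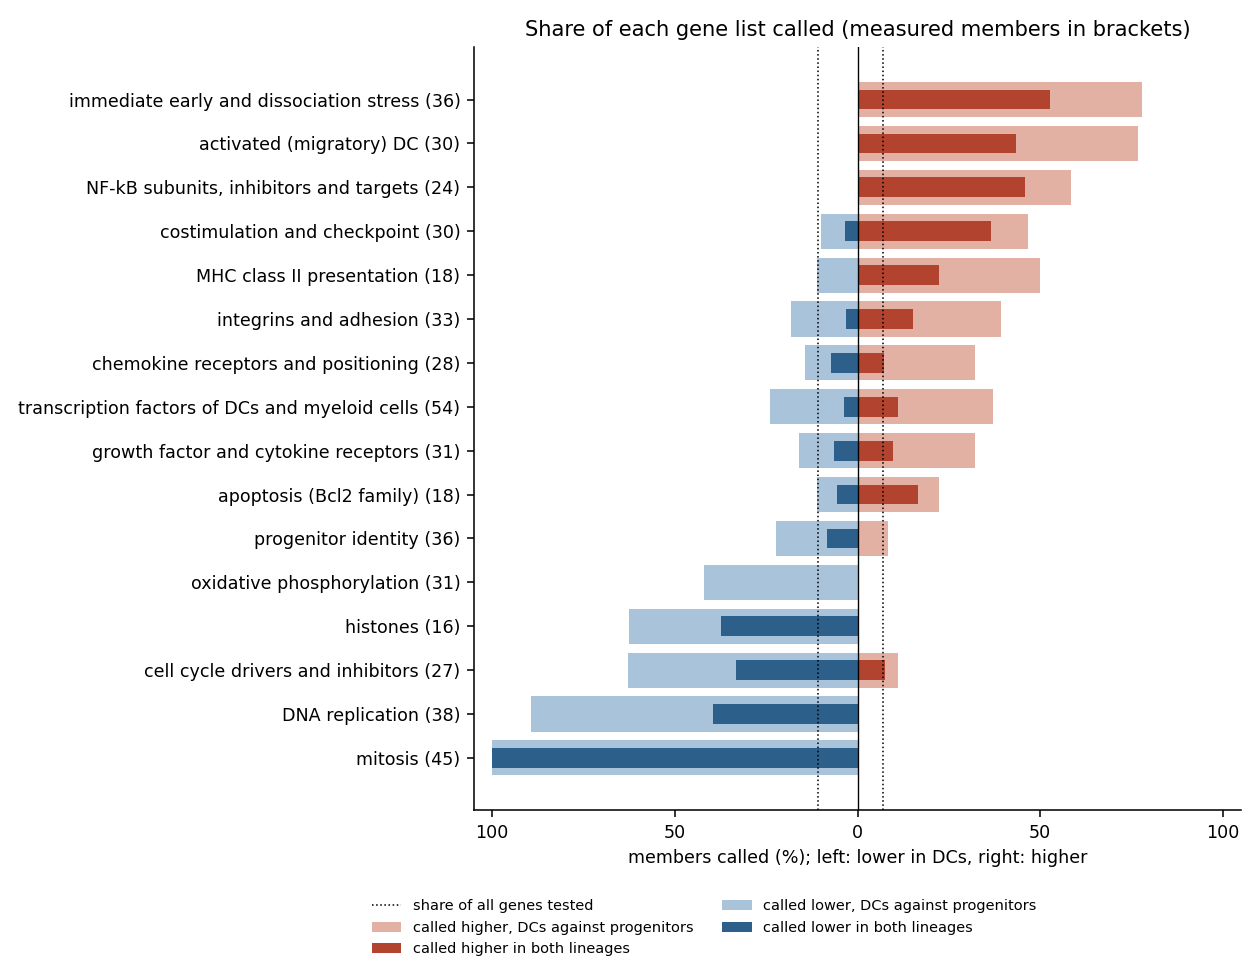
Share of measured members (percent) of 16 gene lists called lower (left) or higher (right) in DCs than in progenitors, with darker bars for members called so in both lineages and dotted lines at the shares of all genes tested (10.8% lower, 6.89% higher). The mitosis bar reaches 100% on the left in both shades, and the immediate early list has 28 of 36 members on the right.

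Transcription factor genes of DCs and myeloid cells rose in 20 of 54 and fell in 13, with 6 called higher and 2 lower in both lineages. Ahr, the aryl hydrocarbon receptor, stood between 6.78 and 7.11 in progenitors and between 8.98 and 10.43 in DCs (2.79 ± 0.25, adjusted p = 4.94e-06). The ETS factor gene Spic, which the monocyte and macrophage marker list also holds, rose by 2.60 ± 0.15. The ETS repressor gene Etv3 rose by 2.27 ± 0.25 and Bhlhe40, a basic helix-loop-helix repressor, by 1.99 ± 0.29 with overlapping groups. Bach2, a repressor active in lymphoid and progenitor cells, fell by 1.44 (standard error 0.19). In the CD24 lineage the call of Bhlhe40 was lost without any of 7 arrays (adjusted p from 0.0521 to 0.17) and that of Bach2 without pre-CD8 array 2 (0.074).

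Irf8 and Id2 differed between the lineages. Irf8, needed for cDC1, stood between 11.92 and 12.16 on all progenitor arrays, at 7.97 and 8.80 in CD172a DC and at 11.68 to 12.15 in CD24 DC. It differed by -3.60 ± 0.26 in the CD172a and -0.24 ± 0.24 in the CD24 lineage (adjusted p = 0.000485 for the difference). Id2, an inhibitor of E proteins, stood at 5.40 and 5.46 in pre-CD4 and 8.34 and 8.74 in CD172a DC, but at 10.06 and 10.14 in pre-CD8 and 9.87 to 10.15 in CD24 DC (3.10 ± 0.22 and -0.08 ± 0.20, adjusted p = 0.000143). Batf3, an AP-1 factor of cDC1, differed by 2.31 ± 0.45 in the CD172a and -0.16 ± 0.41 in the CD24 lineage, and Irf4, a factor of cDC2, by 1.36 ± 0.39 and 0.52 ± 0.35, and neither was called for the difference (adjusted p = 0.0834 and 0.689). For Batf3 it was called with quantile normalization (0.0332), with the interquartile range as a covariate (0.027) and without CD172a DC array 1 (0.0133). Zbtb46, which carries the reporter, stood between 6.22 and 6.87 in progenitors and between 6.44 and 7.40 in DCs (0.12 ± 0.17, adjusted p = 0.637). The shared call of Batf3 (adjusted p = 0.0261) was lost without CD172a DC array 2, CD24 DC array 2, pre-CD4 array 2 or pre-CD8 array 2 (0.0559 to 0.102), and that of Irf4 (0.0244) without CD172a DC array 2, pre-CD4 array 1 or pre-CD8 array 1 (0.104 to 0.133).

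Growth factor and cytokine receptor genes rose in 10 of 31 and fell in 5. Kit, the receptor of stem cell factor and part of the progenitor gates, stood at 6.11 and 5.80 in pre-CD4, 8.85 and 9.23 in pre-CD8 and 9.59 to 9.80 on all DC arrays. It rose by 3.74 ± 0.23 in the CD172a lineage and was not called in the CD24 lineage (0.67 ± 0.21, adjusted p = 0.0917), though it was with arrays set to a common median and interquartile range (0.0496). Il1r2, the decoy receptor of interleukin-1, rose by 5.73 ± 0.67 in the CD172a lineage, and Ifngr1, a chain of the interferon gamma receptor, in both (1.39 ± 0.25 and 1.48 ± 0.27). Flt3, the receptor of the main DC growth factor, was not called (0.23 ± 0.17, adjusted p = 0.377), but was with arrays set to a common spread (0.0392). Ifngr1 lost its call without pre-CD8 array 1 in the CD24 lineage (0.0956) and without pre-CD4 array 1 in the CD172a lineage (0.0524).

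The other genes of the gates and of the fixed panel gave shared differences of 1.10 or less in size, and some differed by more in 1 lineage. Itgax, the gene of CD11c, rose by 1.10 ± 0.21, with 1.94 ± 0.28 in the CD24 lineage and 0.26 ± 0.31, not called, in the CD172a lineage (adjusted p = 0.629). Its difference between lineages was not called (adjusted p = 0.0834). Siglech, a marker of plasmacytoid DCs, differed by -1.63 ± 0.35 in the CD172a lineage and by -0.09 ± 0.32, not called, in the CD24 lineage (adjusted p = 0.92). Myc differed by -1.62 ± 0.28 in the CD24 lineage (adjusted p = 0.00266). In the CD172a lineage Myc was at 0.28 ± 0.31 and not called (0.594). Sirpa rose by 1.12 in the CD172a lineage (adjusted p = 0.0109), a call lost with the interquartile range as a covariate (0.14). In the CD24 lineage Sirpa was not called (0.0877). In the shared comparison Csf1r changed by -0.76 ± 0.19, Siglech by -0.86 ± 0.23 and Notch2 by -0.66 ± 0.15, a call lost with arrays set to a common median and interquartile range (adjusted p = 0.251). Sirpa was at 0.19 ± 0.17 (adjusted p = 0.481), and at -0.02 without pre-CD8 array 1. Cd24a was at -0.53 ± 0.17 and Myc at -0.67 ± 0.21, calls (adjusted p = 0.0404 and 0.0402) that were lost without 9 of the 12 arrays each (0.0524 to 0.192 and 0.0514 to 0.159). The call of Csf1r was lost without CD172a DC array 1 (0.0788) or pre-CD8 array 1 (0.0763), and that of Siglech without CD172a DC array 2 (0.0743), pre-CD4 array 1 (0.105) or pre-CD8 array 2 (0.0728). The call of Csf1r was also lost with quantile normalization (0.0661) or a common median and interquartile range (0.0659), and those of Siglech (0.312) and Notch2 (0.086) with the interquartile range as a covariate.

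Survival genes of the Bcl2 family changed in 6 of 18, 4 higher and 2 lower, beside 6.89% and 10.8% of all genes. The antiapoptotic gene Bcl2a1a stood at 5.22 and 5.21 in pre-CD4, 6.63 and 6.99 in pre-CD8, 8.93 and 10.46 in CD172a DC and 10.64, 10.40 and 10.32 in CD24 DC (4.06 ± 0.27). The antiapoptotic gene Bcl2 fell, from 7.65 to 8.89 in progenitors to 5.40 to 7.04 in DCs (-1.63 ± 0.26). Pmaip1, the gene of the death-promoting protein NOXA, rose by 1.40 ± 0.22, and Bcl2l14 by 1.26 ± 0.19 with a call in the CD24 lineage. Bcl2a1a has close copies, so its value is uncertain. In a lineage, the call of Bcl2 was lost without either CD172a DC array, pre-CD4 array 1 or pre-CD8 array 1 (adjusted p from 0.0739 to 0.18), as was that of Pmaip1 (0.0768 to 0.231).

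Genes of earlier progenitors fell in 8 of 36 and rose in 3, a share near that of all genes for the rises (6.89%). Myb, a factor of dividing progenitors, fell by 1.03 (standard error 0.23) in the CD24 and by 3.16 (standard error 0.25) in the CD172a lineage. Cd34, a sialomucin of progenitors, stood between 6.11 and 7.46 in progenitors and between 4.75 and 5.68 in DCs (-1.71 ± 0.23). Genes of neutrophil granules fell in 10 of 15, among them Mpo (-2.52 ± 0.32), Ctsg (-2.37 ± 0.22) and Elane (-2.03 ± 0.45), with Ctsg called in both lineages. Of 30 Notch pathway genes 4 rose and 5 fell, beside 6.89% and 10.8% of all genes, and Hes1, a target of Notch signalling, rose by 1.91 ± 0.27 with calls in both lineages. Without pre-CD8 array 1 the CD24 lineage call of Myb (adjusted p = 0.267), Cd34 (0.0945) and Hes1 (0.0596) was lost, and without pre-CD4 array 1 the CD172a lineage call of Cd34 (0.0758), Hes1 (0.0848) and Ctsg (0.102). The CD172a lineage call of Cd34 was also lost without CD172a DC array 1 (0.0575), and that of Hes1 (0.076) and Ctsg (0.0603) without CD172a DC array 2.

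Oxidative phosphorylation genes fell in 13 of 31 and rose in none, with a median of -0.56, led by the complex I gene Ndufa9 (-1.34 ± 0.23). This count was 7 with quantile normalization, 5 with arrays set to a common spread and 0 with the interquartile range as a covariate, where the call of Ndufa9 was lost as well (adjusted p = 0.0844). On leaving out an array it was 2 without CD172a DC array 1, 3 without pre-CD4 array 1 or pre-CD8 array 1, 5 without CD24 DC array 2 or 3, 8 without any array of the common DC progenitor and 21 without CD24 DC array 1.

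The lineages differed in 229 genes (1.03% of those tested), 26 of which were also called alike in direction. Ptgs2, the inducible cyclooxygenase, rose in both lineages (adjusted p = 2.11e-05 for the difference). It stood at 4.49 to 4.91 on progenitor arrays, 11.28 and 11.41 in CD172a DC and 6.42, 6.29 and 6.40 in CD24 DC. Of the 18 genes called in opposite directions, the lectin receptor gene Clec4a1 had the largest difference between lineages and stood between 5.25 and 6.39 in progenitors, at 9.79 and 9.71 in CD172a DC and at 4.09 to 4.31 in CD24 DC (4.06 ± 0.31 and -1.89 ± 0.28). Fabp5, a fatty acid binding protein (1.97 ± 0.38 and -1.35 ± 0.35), and Oas1g, an interferon-induced synthetase (2.01 ± 0.40 and -1.34 ± 0.37), moved in the same directions as Clec4a1. Slco3a1, an organic anion transporter, moved the other way (-1.45 ± 0.21 in the CD172a and 1.62 ± 0.20 in the CD24 lineage). Clec4a1, Oas1g and Fabp5 have close copies in the genome, so their values are uncertain. The 229 calls numbered 130 without CD172a DC array 1, 99 without pre-CD4 array 1, 125 without pre-CD4 array 2 and 145 without pre-CD8 array 1, and the 18 opposite calls 6 to 8 without either CD172a DC array, either pre-CD4 array or pre-CD8 array 1. Without CD172a DC array 1 Oas1g lost its call for the difference (adjusted p = 0.0561). In the CD24 lineage the call of Oas1g was lost without any of 10 arrays (0.0579 to 0.229) and that of Fabp5 without any of 7 (0.0523 to 0.561), and with the median over its probe sets Fabp5 was called neither for the difference (0.0639) nor in the CD24 (0.0582) or CD172a lineage (0.101).

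Markers of other cells were read on the same arrays, as the mean log2 level of each list. Monocyte and macrophage markers rose in 11 of 26 and fell in 6, with means of 6.09 to 6.62 on progenitor and 6.18 to 6.77 on DC arrays. The 11 were Nr4a1, Spic, Treml4, Adgre1, Hmox1, Vcam1, Slc40a1, Cd14, C1qb, Axl and Cd5l, the last below the array median on all 9 arrays. The 6 were Ly6c2, Fn1, Ccr2, F13a1, Ms4a4c and Csf1r. B cell markers rose in 1 of 17, Ms4a1 (2.91 ± 0.17), and fell in 3 (5.40 to 5.52 and 5.44 to 5.74). Below the array median on all 9 arrays were 7 of the 17, Cd79a and Ebf1 among them, while Ighm stood between 9.54 and 10.97. T cell markers rose in 2 of 15 and fell in 1, with 7 of the 15, such as Cd3e, Cd3g and Trat1, which was called higher, below the median on all 9. NK cell markers rose in 2 of 15, Ccl5 and Klre1, with 7 of the 15, such as Ncr1, Eomes and Klre1 itself, below it. Klrk1 stood between 7.01 and 8.78. Neutrophil markers fell in 4 of 17 (5.55 to 7.78 on progenitor and 4.68 to 6.08 on DC arrays), but some varied widely within groups. S100a8 stood at 10.24 and 4.83 in CD172a DC and at 4.61, 9.52 and 4.52 in CD24 DC. In pre-CD4 it was at 7.88 and 8.89, and in pre-CD8 at 8.28 and 11.95. It was not called (adjusted p = 0.219), nor was S100a9 (0.199), which was high on the same DC arrays. The pDC markers fell in 6 of 19, with 3 higher. Markers of erythroid cells changed in 1 of 9, of platelets in 2 of 12, of basophils, mast cells and eosinophils in 5 of 14 and of stromal and endothelial cells in 1 of 14. Among called markers Ly6g, Fcer1a and Kdr were also below the array median on all 9 arrays. Of all genes 6.89% were higher and 10.8% lower in the same comparison. The part of other cells in the results above was not tested.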

How the data were processed

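Expression was measured on 12 arrays, and the 9 of spleen DCs and marrow pre-DCs were compared. RNA was amplified with NuGEN Ovation Pico WTA and biotin-labelled for Affymetrix whole-transcript arrays, per the labels. The values analysed are log2 expression values per probe set as deposited by the authors, between 0.84 and 13.09. How probe signals were corrected, summarized and normalized before deposit is not stated in the labels or file headers used. Precision is limited by how few arrays each group has.

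Of 35145 probe sets, 23525 carried 1 gene symbol, 1810 several and 9810 none. Probe sets with 1 symbol gave 22184 genes, 1082 of them with several probe sets. limma 3.58.1 in R 4.3.3 fitted 5 group means over the 12 arrays (lmFit and eBayes), with the 3 arrays of the common DC progenitor adding to the spread estimate alone. The contrasts were the shared difference, both lineage differences and the difference between these, adjusted by Benjamini-Hochberg over all genes at 0.05. Standard errors are limma's moderated ones. The code was tested on simulated data.

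The rule for naming genes took the 12 in each direction with the largest smaller lineage difference among genes called alike with no overlap of arrays. It also took up to 4 members of each list with the largest shared difference, 4 genes called in opposite directions and a panel of 20. Not every list member that it took is named, and some lists, such as glycolysis, lysosome and unfolded protein response, are not described. The following were named beyond that rule, after values were seen: members of lists chosen to illustrate roles or promoters, genes of a list's short counts, Kif20b and the genes shown in promoter windows. The comparison, members and gene lists were chosen with earlier results of these data known. Of 1069 list genes 966 were measured. Alternatives are given at the end. Python 3.11.15, pandas 2.3.3, numpy 2.4.6 and matplotlib 3.10.9 were used for tables and plots.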

Additional observations from a re-analysis of the deposited data

Results flagged for a closer look

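The values here are the change in the CD24 lineage minus the change in the CD172a lineage, on the log2 scale, for named genes where limma called this difference. It was below 0, the change being more positive in the CD172a lineage, for Clec4a1 (-5.94), the decoy receptor gene Il1r2 (-5.00), Ptgs2 (-4.98), H2-Eb1 (-3.67), Oas1g (-3.35), Fabp5 (-3.32), Id2 (-3.19), Kit (-3.08), H2-DMb2 (-2.43), Myc (-1.90) and Sirpa (-1.86). It was above 0 for Ly6c2 (4.28), Irf8 (3.36), H2ax (3.14), Slco3a1 (3.07), Cadm1 (2.69), Il12b (2.39) and Myb (2.13). Ly6c2, H2ax and Myb fell in both lineages and by more in the CD172a lineage, while Ptgs2 and Il12b rose in both. On leaving out an array, the call was lost for Sirpa without any of 5 arrays (adjusted p from 0.0632 to 0.112), for Myc without any of 9 (0.0713 to 0.225) and for Cadm1 without any of 5 (0.0508 to 0.101). It was also lost for Il1r2 without CD172a DC array 2, either pre-CD4 array or pre-CD8 array 1 (0.063 to 0.0803), for Myb without pre-CD4 array 1 (0.057) and for Oas1g without CD172a DC array 1 (0.0561).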

How the results depend on the processing

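Counts follow the order shared calls, higher in both lineages, lower in both, opposite, and difference between lineages, against 3926, 316, 571, 18 and 229. They were 1644, 243, 300, 7 and 404 with each array's interquartile range as a covariate, 842, 100, 179, 2 and 73 with a fold minimum of 1.5, and 1803, 187, 243, 6 and 84 without the arrays numbered 1. Fits to the 9 arrays gave 11 opposite and 134 for the difference, and separate fits for each lineage 206 higher, 313 lower and 8 opposite. On leaving out an array they ran from 2401 to 5379, 158 to 417, 261 to 803, 6 to 17 and 99 to 278. The other alternatives (quantile normalization, common median and interquartile range, a filter at the 40th percentile of mean level, the median probe set, every probe set, trend and robust estimation) kept all 5 counts within 1.5 times. With the replicate block they were 4104, 334, 557, 19 and 292. Arrays with the same number are not shown to be paired: their deviations correlated at -0.16 to 0.02 where a CD172a DC array was in the pair and 0.1 to 0.42 otherwise. Sirpa turned to -0.02 without the arrays numbered 1 and ran from -0.02 to 0.39 on leaving out an array. Cd24a turned to 0.11 and Pcna to 0.15 with arrays set to a common median and interquartile range. The cause of these changes was not tested. With 2 or 3 arrays a group, the median standard error was 0.18 for the shared difference and 0.24 and 0.27 for the lineage differences.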

Other observations

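Interferon-stimulated genes moved in both directions, with 11 of 29 higher in DCs and 5 lower. Cxcl10, a chemokine for CXCR3-bearing T cells, rose by 1.91 ± 0.21 and was called in both lineages (in the CD172a lineage not without pre-CD4 array 1, adjusted p = 0.069), while Bst2, a tether of budding virions (-2.27 ± 0.39), and the dynamin-like GTPase gene Mx2 (-1.29 ± 0.19) fell. Of 24 Toll-like receptor genes and adaptors 7 rose and 2 fell, beside 6.89% and 10.8% of all genes. The rises were led by Tlr11 (2.49 ± 0.31), a sensor of profilin, and Tlr13 (2.25 ± 0.44), a sensor of bacterial ribosomal RNA, both called higher in each lineage. Tlr11 lost its CD24 lineage call without pre-CD8 array 1 (adjusted p = 0.0623), and Tlr13 without that array (0.457) or CD24 DC array 1 (0.0559) or 3 (0.0696). In the CD172a lineage Tlr13 lost its call without any of 8 arrays (0.0522 to 0.344). Of 17 cholesterol synthesis genes 4 fell and none rose: Fdps (-2.05 ± 0.28), Sqle (-0.90 ± 0.18), Insig1 (-0.71 ± 0.18) and Sc5d (-0.71 ± 0.21). With the interquartile range as a covariate the calls of Bst2 (adjusted p = 0.0616), Tlr13 (0.131), Sqle (0.151), Insig1 (0.0557) and Sc5d (0.564) were lost. The call of Insig1 was also lost without CD172a DC array 2 (0.0628), and that of Sc5d without either CD172a DC array, either pre-CD4 array or either pre-CD8 array (0.0541 to 0.097).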
